A study of Mus musculus with 4 samples.

Results

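The heat shock chaperone genes followed here are 9 protein-folding genes taken by symbol from the 22632 genes of the deposited expression table: Hspa1a, Hspa1b, Hspa8, Hsph1, Dnajb1, Hsp90aa1, Hspb1, Hspd1 and Hspe1. Each of the 9 had 1 row. Their levels were read in 4 RNA-seq libraries of mouse small intestinal organoids, self-organising epithelial cultures that grow in Matrigel from isolated crypts. All 4 cultures were started from whole crypts and harvested 24 hours after seeding, in medium with Egf, Noggin and R-spondin 1.

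Yap-/- organoids came from Yapfl/fl;VillinCre mice, in which Villin-Cre removes Yap from the intestinal epithelium. Their reference was Yap+/- organoids from Yap+/fl;VillinCre mice, which carry the same Cre and keep 1 intact allele. YapTg organoids carry a wild-type Yap transgene that doxycycline switches on through a Cre-driven reverse tetracycline transactivator. They were grown with doxycycline from the time of seeding (1.5 mg/ml as the labels give it) or without it. No library had doxycycline without the transgene, so the drug and the induced Yap cannot be told apart. Each group is 1 library, and how many mice or wells went into it is not given in the sources used here. Differences therefore carry no p-value and could not be checked in replicates. The 95% intervals cover counting error only.

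Chaperones bind unfolded or partly folded proteins and let them fold or refold. HSP70 proteins work in cycles of ATP use that J-domain partners start and exchange factors such as HSP110 reset, HSP90 finishes the folding of kinases and receptors, small heat shock proteins hold damaged proteins without ATP, and HSP60 with its lid HSP10 encloses proteins in the mitochondrial matrix. In most cells some of these genes are always on, while others are nearly silent until heat shock factor 1 (HSF1) binds heat shock elements, inverted repeats of the letters GAA, in their promoters. Both kinds are among the 9 genes.

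The promoter letters show which genes carry exact matches to such elements and how close the stress-inducible HSP70 copies are to each other. RefSeq promoter windows (GRCm38.p6, 250 bases before and 50 after a gene start) were at hand for 7 of the 9 genes, in 10 windows, and not for Hspa8 and Hsp90aa1. The 250 bases before the start are shown 5′ to 3′ on the gene's strand for 5 genes, chosen because they hold an element there and belong to the groups described below. Capitals mark 2 or more GAA units in opposite orientation with a gap of 2 bases (GAANNTTC or TTCNNGAA). The regions are chr17:34972157-34972406 (minus strand) for Hspa1a, chr17:34959239-34959488 (minus strand) for Hspa1b, chr5:135887669-135887918 (plus strand) for Hspb1, chr5:149636337-149636586 (minus strand) for the first of the 2 annotated Hsph1 starts, and chr1:55087898-55088147 (plus strand) for Hspe1.
Hspa1a: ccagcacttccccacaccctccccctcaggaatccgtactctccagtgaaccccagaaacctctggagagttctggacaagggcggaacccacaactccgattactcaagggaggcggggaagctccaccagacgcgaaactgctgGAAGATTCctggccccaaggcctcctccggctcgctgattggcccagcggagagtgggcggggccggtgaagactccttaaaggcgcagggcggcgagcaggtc
Hspa1b: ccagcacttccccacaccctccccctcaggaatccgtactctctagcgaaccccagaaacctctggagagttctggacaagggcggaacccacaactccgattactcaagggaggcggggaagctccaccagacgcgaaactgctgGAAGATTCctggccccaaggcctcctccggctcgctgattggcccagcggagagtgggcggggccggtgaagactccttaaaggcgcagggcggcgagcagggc
Hspb1: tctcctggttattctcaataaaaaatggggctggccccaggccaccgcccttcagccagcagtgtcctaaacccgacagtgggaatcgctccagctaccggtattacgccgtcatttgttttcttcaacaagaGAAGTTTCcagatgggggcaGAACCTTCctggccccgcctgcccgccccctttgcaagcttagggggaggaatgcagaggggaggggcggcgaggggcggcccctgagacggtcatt
Hsph1: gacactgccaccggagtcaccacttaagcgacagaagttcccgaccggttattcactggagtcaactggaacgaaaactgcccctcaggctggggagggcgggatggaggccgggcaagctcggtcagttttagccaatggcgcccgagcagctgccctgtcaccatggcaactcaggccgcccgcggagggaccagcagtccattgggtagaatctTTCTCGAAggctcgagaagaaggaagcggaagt
Hspe1: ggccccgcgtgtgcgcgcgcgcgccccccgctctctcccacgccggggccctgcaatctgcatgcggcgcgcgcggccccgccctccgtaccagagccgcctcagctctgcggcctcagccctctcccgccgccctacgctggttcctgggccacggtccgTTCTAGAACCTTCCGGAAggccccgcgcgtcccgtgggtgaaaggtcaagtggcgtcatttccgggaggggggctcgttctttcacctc

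The 2-unit elements were searched in both orientations, each of which reads the same on both strands. Of all 32851 mouse windows of this length, 15.1% held at least 1 of them. Of the 7 chaperone genes, 6 held 1 in at least 1 window. The first number counts windows and the second genes, some with more than 1 window or a shared window, so they are not alike. The whole windows of Hspa1a and Hspa1b, the heat-inducible HSP70 genes that lie side by side on chromosome 17, differ at only 4 of 300 bases. Each holds GAAGATTC at 104 to 97 bases before the start. Hspb1, the small heat shock protein gene on chromosome 5, holds GAAGTTTC from -117 to -110 and GAACCTTC from -97 to -90, counted from the first base of the gene as 0. It was the only one of the 7 genes whose window held the TEAD motif CATTCC, the DNA letters read by YAP's partner factors. That motif lies on the minus strand from -49 to -44, and 14.7% of all windows hold it on either strand. Hsph1, the HSP110 gene on chromosome 5, holds TTCTCGAA from -33 to -26 and, past its start, the 3-unit run TTCTGGAAAGTTC from 36 to 48. Such 3-unit runs (the first 2-unit form with a further GAA after 2 more bases, searched on both strands) occur in 0.603% of all windows, and each contains overlapping 2-unit matches. Hspe1, the HSP10 gene, holds a pair of them, TTCTAGAACCTTC and GAACCTTCCGGAA, which overlap from -84 to -77 and together span -89 to -72. Hspd1, the HSP60 gene, lies next to it on chromosome 1 on the opposite strand, and its second annotated start is 216 bases from the Hspe1 start. The Hspd1 window at that start shares 285 bases with the Hspe1 window and holds the same run on the other strand, from -144 to -127. The first Hspd1 start and both Dnajb1 starts held no heat shock element or TEAD match in their windows. Only exact letters were searched, so looser elements would be missed. A match is a run of letters and does not show binding.

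**Figure D1:**
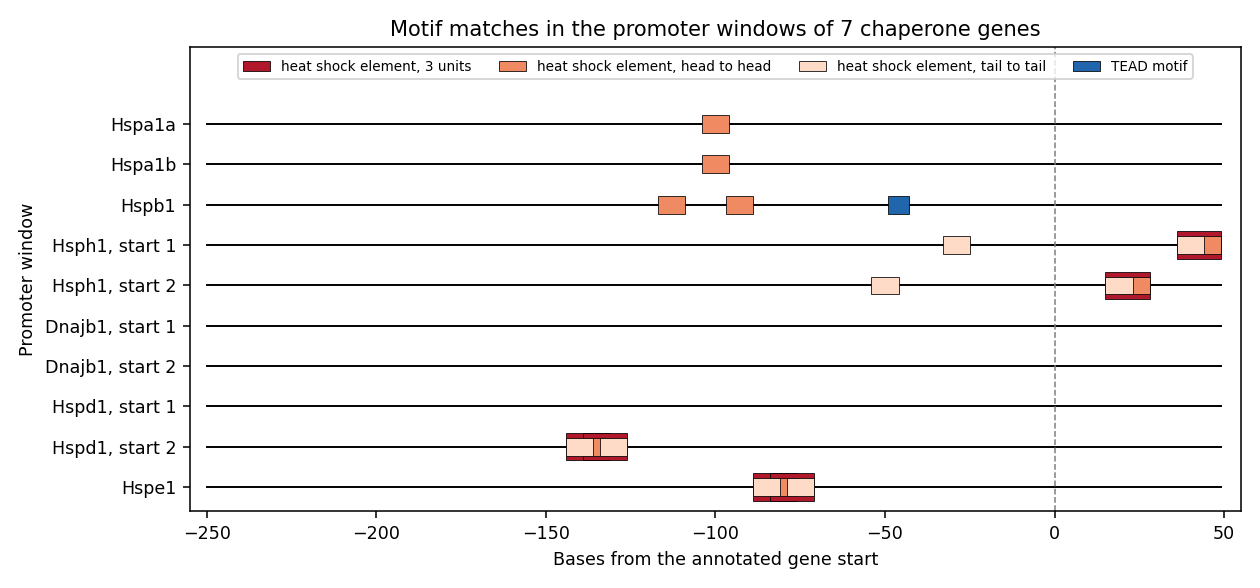
Motif matches in the 10 promoter windows of 7 chaperone genes. Each line is 1 window, the x axis gives bases from the annotated gene start (dashed line at 0), and boxes mark heat shock elements of 2 units (light and mid orange), of 3 units (red frame) and the TEAD motif (blue). Hspa1a and Hspa1b share 1 position, Hspb1 alone has a TEAD match, and the Dnajb1 windows are empty.

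Library totals recovered from the table ran between 44934170 and 75269003 reads, of which 86.1% to 90.6% lay in genes. Levels are in RPKM, which scales reads by gene length and by library total, and 10530 to 10722 genes reached 1 RPKM. A gene of 2 kb at 1 RPKM has 89.9 to 150.5 reads. Yap1 was at 3.35 RPKM in Yap-/- organoids, against 16.7 RPKM in Yap+/-, and at 1039 RPKM with and 25.1 RPKM without doxycycline, as the labels say. All 8 epithelial markers were at 1 RPKM or more in every library. Their summed level was 2500 RPKM in Yap-/- organoids, against 2930 RPKM in Yap+/-, and 6343 RPKM with and 2540 RPKM without doxycycline. The doxycycline gap lay mostly in Krt8 (1820 RPKM with and 618 without), Krt18 (1352 and 261) and Krt19 (2011 and 676). Cdh1 (280 and 170), Krt20 (267 and 159) and Cdx2 (69.5 and 62.5) were also higher. Epcam (335 and 372) and Vil1 (208 and 222) were lower, so the sum is no measure of epithelial content. The stromal genes Col3a1, Dcn, Lum and Des were at 0 in every library, and 10 stromal markers summed to between 0.489 and 3.61 RPKM, with the least in the induced library and at most 1 of the 10 at 1 RPKM. Of 10 immune and endothelial markers, 1 to 3 reached 1 RPKM, with sums between 3.95 and 7.80 RPKM, and 0 of 5 red blood cell markers did, with sums between 0.0292 and 0.174 RPKM. The part of these gaps in the chaperone values was not tested.

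Hspd1 was the highest of the 9 genes per length in every library, at 107 RPKM in Yap-/-, 104 RPKM in Yap+/-, 106 RPKM with doxycycline and 118 RPKM without. It ranked between 313 and 413 among all genes of a library. Hspa8, the constitutive cytosolic HSP70 that also uncoats clathrin vesicles, came next in all 4 libraries, at 65.9 RPKM in Yap-/-, 63.7 RPKM in Yap+/-, 81.3 RPKM with doxycycline and 47.6 RPKM without. These 2 genes differ by less than 2-fold in 3 of the libraries, and only the uninduced YapTg library sets them further apart. Hspa1b, Hspa1a and Hspb1 held the last 3 places everywhere, in that order. The middle of the order changed: Hspe1 followed Hspa8 in Yap-/- and Yap+/- organoids, and in the induced library Hsp90aa1, Dnajb1 and Hsph1 stood between them. Neighbouring levels there were close, with Hsph1 and Hspe1 at 19.8 and 19.0 RPKM in the induced library. Together the 9 genes took 0.0830% of reads in Yap-/- and 0.0800% in Yap+/- organoids, and 0.111% with and 0.0837% without doxycycline.

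**Figure D2:**
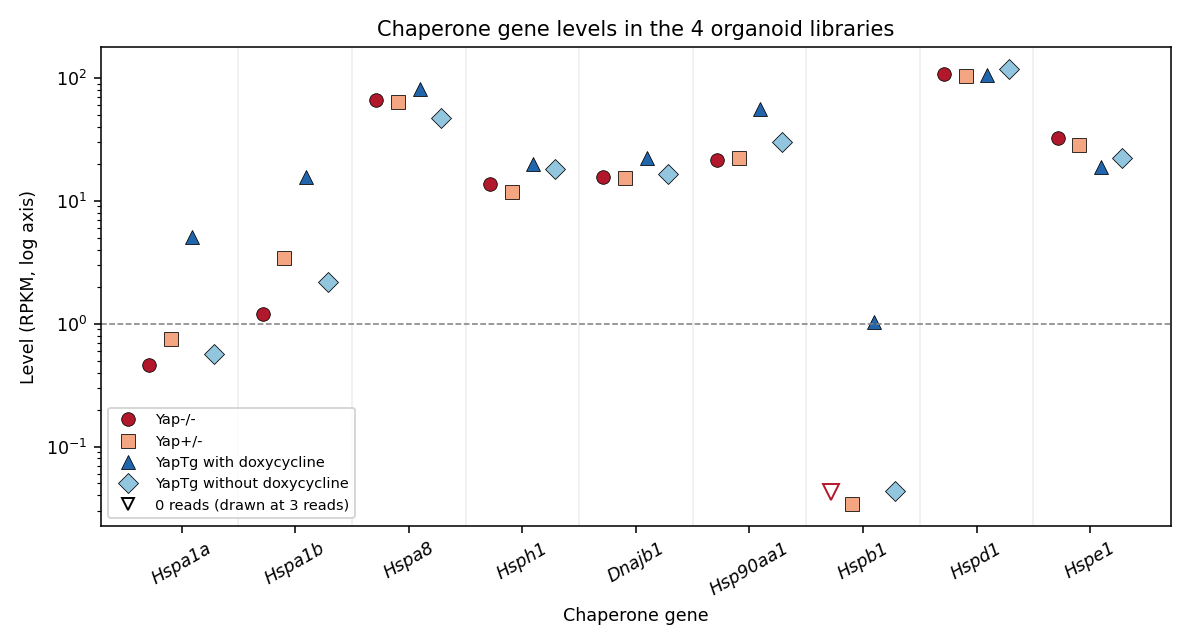
Levels of the 9 chaperone genes in RPKM (log axis), 1 symbol per library, with the dashed line at 1 RPKM and an open triangle where a gene had 0 reads (drawn at the level of 3 reads). The induced YapTg library stands above the other 3 for every gene but Hspd1 and Hspe1, and below them for Hspe1.

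The first pair asks what organoids lose with Yap. Among the chaperone genes the inducible HSP70 gene Hspa1b was lower in Yap-/- organoids, and the abundant chaperones stood within 1.2-fold of the Yap+/- level. A gene is counted here as higher or lower when the ratio of RPKM + 1 was at least 2-fold with 1 RPKM or more in the higher library. At that floor, 7 of the 9 genes could be counted, of which 0 were higher and 1 lower. Over all 10710 genes at the floor, 0.336% were higher, 0.57% lower and 0.906% either. The median log2 ratio of the 7 was 0.04, against 0.05 for all genes. In whole organoids, fewer cells of a type and less RNA per cell cannot be told apart.

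Hspa1b was at 1.19 RPKM (178 reads) in Yap-/- organoids, against 3.42 RPKM (429 reads) in Yap+/-. The RPKM ratio was 0.349 (95% interval 0.269 to 0.449) and the log2 ratio of RPKM + 1 was -1.01, just past the 2-fold line, and 59 of the 10710 genes lay at least as low. Its neighbour Hspa1a was at 0.464 RPKM (92 reads) in Yap-/- organoids, against 0.750 RPKM (125 reads) in Yap+/-, under the floor in both. Its ratio was 0.619 (0.413 to 0.920). With the reads of the pair summed, 270 in Yap-/- and 554 in Yap+/- organoids, the ratio of read shares was 0.410 (0.331 to 0.505). The Yap-/- library had the lowest level of both genes among the 4 libraries.

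The other counted genes lay close together in this pair. Hsph1 was at 13.8 RPKM in Yap-/- organoids, against 11.9 RPKM in Yap+/-, a ratio of 1.16 (1.10 to 1.23). Hspe1 was at 32.7 RPKM in Yap-/-, against 28.7 RPKM in Yap+/-, a ratio of 1.14 (1.06 to 1.23). Dnajb1 was at 15.6 RPKM in Yap-/-, against 15.2 RPKM in Yap+/-. The ratio was 1.04 (1.00 to 1.07) for Hspa8. For Hspd1 (1.03) and Dnajb1 (1.03) the sign on the log2 scale turned with the scaling of the libraries, so no direction is given. Hsp90aa1, the inducible cytosolic HSP90, was at 21.6 RPKM in Yap-/- organoids, against 22.1 RPKM in Yap+/-, a ratio of 0.979 (0.928 to 1.03). Hspb1 had 0 reads in Yap-/- organoids, where 3 reads would be 0.0430 RPKM, and 2 reads in Yap+/- organoids, so no ratio is given.

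Doxycycline in YapTg organoids asks what extra Yap does to transcripts. With it, both inducible HSP70 genes were past 2-fold higher and 0 of the 9 genes were lower. All 9 could be counted, since Hspa1a and Hspb1 reached 1 RPKM through the induced library. Over all 11108 genes at the floor, 5.85% were higher, 5.8% lower and 11.6% either. Over the 7 that were at 1 RPKM or more in both libraries, 1 was higher and the median log2 ratio was 0.41. With Hspa1a and Hspb1, which could enter only where they were high, the median was 0.76. All genes at the floor had a median of -0.04, and their middle 90% ran from -1.10 to 1.13. The 9 genes together took 1.33 times the share of reads (1.31 to 1.35), against 1.04 times (1.02 to 1.06) in the Yap-/- and Yap+/- pair.

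Hspa1a was at 5.10 RPKM (1123 reads) with and 0.563 RPKM (74 reads) without doxycycline, a ratio of 9.06 (6.49 to 13.0) and a log2 ratio of 1.96. Hspa1b was at 15.5 RPKM (2576 reads) with and 2.19 RPKM (217 reads) without, a ratio of 7.09 (5.82 to 8.70) and a log2 ratio of 2.37. The summed pair had 3699 reads with and 291 reads without, a ratio of read shares of 7.59 (6.41 to 9.05). Among all genes at the floor, 138 (1.24%) lay at least as high as Hspa1b and 199 (1.79%) at least as high as Hspa1a. The induced library held the highest level of both genes. Even there Hspa8 stood above them, at 5.24 times the RPKM of Hspa1b and 15.9 times that of Hspa1a, against 21.7 times Hspa1b and 84.5 times Hspa1a without doxycycline.

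Of the chaperones that were abundant without doxycycline, Hspa8, Hsp90aa1, Dnajb1 and Hsph1 had ratios above 1 that did not reach the 2-fold line. Hsp90aa1 was at 56.1 RPKM with and 30.2 RPKM without, a ratio of 1.86 (1.78 to 1.94). Hspa8 was at 81.3 RPKM with and 47.6 RPKM without, a ratio of 1.71 (1.65 to 1.77). Dnajb1, the J-domain partner that directs HSP70 to aggregated proteins, was at 22.3 RPKM with and 16.5 RPKM without, a ratio of 1.35 (1.25 to 1.46). Hsph1, which resets the HSP70 cycle, was at 19.8 RPKM with and 18.3 RPKM without, a ratio of 1.08 (1.03 to 1.13). The log2 ratios of Hsp90aa1 (0.87), Hspa8 (0.76) and Dnajb1 (0.41) had 7.02%, 8.39% and 16.3% of all genes at least as high.

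The mitochondrial chaperonin genes had ratios below 1. Hspd1 was at 106 RPKM with and 118 RPKM without doxycycline, a ratio of 0.900 (0.873 to 0.927). Its levels in Yap-/- (107 RPKM) and Yap+/- organoids (104 RPKM) were also below that of the uninduced library. Hspe1 was at 19.0 RPKM with and 22.2 RPKM without, a ratio of 0.854 (0.776 to 0.940). Both lie in the middle of all genes, with 60.3% and 66.8% of them at least as high. The RPKM of Hspd1 was 5.59 times that of Hspe1 with and 5.31 times without doxycycline, and 3.27 times in Yap-/- and 3.62 times in Yap+/- organoids. The gap between these neighbouring genes was wider in both YapTg libraries than in the other libraries.

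Hspb1, whose protein HSP25 holds unfolded proteins and binds actin, was almost unread outside the induced library. It had 80 reads (1.03 RPKM) with and 2 reads (0.0432 RPKM) without doxycycline. The ratio of 23.9 has a wide counting interval, 4.05 to 966. On the scale of RPKM + 1 the log2 ratio was 0.96, short of 2-fold. Copies limit what this row can say: 50.1% of its 50-base words occur in other genes of the GENCODE M21 transcripts. The processed pseudogene Hsp25-ps1, which has no row to check, holds 48.8% of the words, and Gm9817 holds 38.3%. Gm9817, named for that overlap after its values were seen, had 76 reads with and 0 without doxycycline, and 0 in Yap-/- and 6 in Yap+/- organoids.

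**Figure D3:**
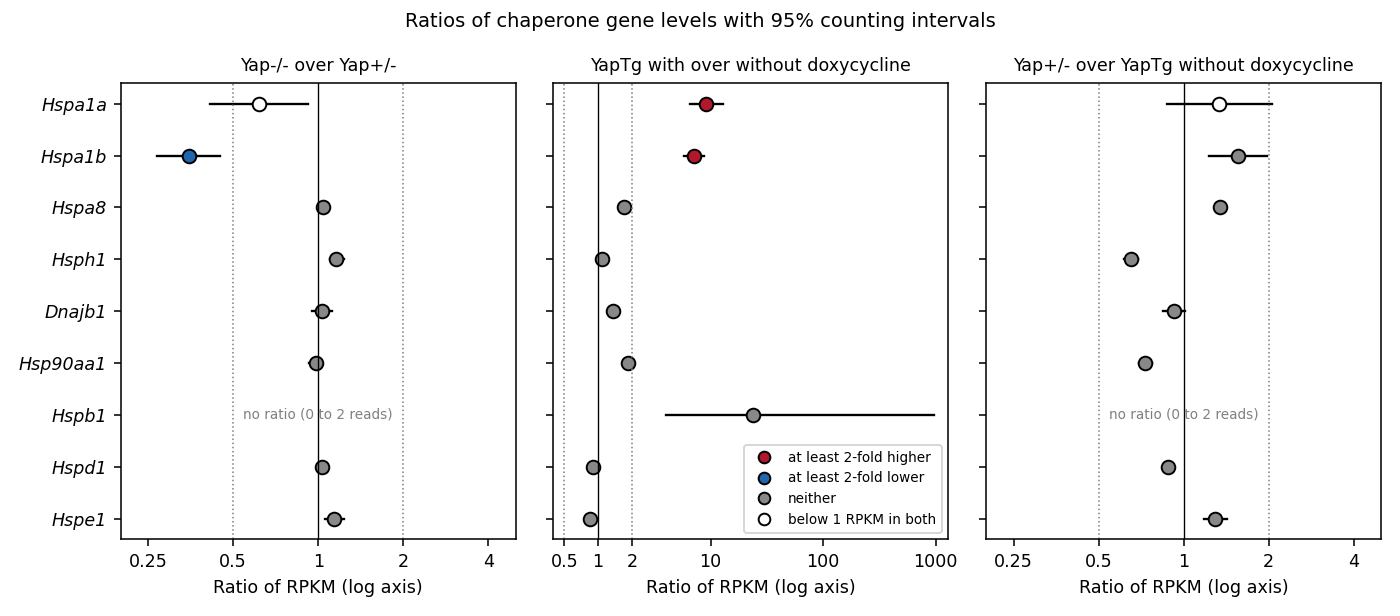
RPKM ratios of the 9 chaperone genes in 3 pairs of libraries (log axes, with a wider range in the middle panel). Bars are 95% counting intervals, dotted lines mark 2-fold in either direction on the RPKM scale, and the colour gives the call on the scale of RPKM + 1. Hspa1a and Hspa1b stand at 9.06 and 7.09 in the middle panel, Hspb1 has the widest bar, and in the left panel Hspa1b at 0.349 is the only call.

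The libraries of Yap+/- and uninduced YapTg organoids have neither full loss nor induction of Yap and show how far 2 such cultures stand apart. They come from different mouse lines, and each is also the reference of a comparison above, so this pair is no spread between replicates. Of 7 chaperone genes at the floor, 0 were higher and 0 lower, against 1.11% higher, 0.726% lower and 1.84% either among all 10883 genes. Gaps under 2-fold were common. Hsph1 was at 11.9 RPKM in Yap+/- organoids, against 18.3 RPKM in uninduced YapTg, a ratio of 0.651 (0.617 to 0.688). Hspa1b was at 3.42 RPKM in Yap+/- organoids, against 2.19 RPKM in uninduced YapTg, a ratio of 1.56 (1.23 to 1.98). The ratio was 1.34 for Hspa8, 1.29 for Hspe1, 0.732 for Hsp90aa1 and 0.921 for Dnajb1. In the doxycycline pair the same genes had ratios of 1.71, 0.854, 1.86 and 1.35, in that order. Hspd1 had a ratio of 0.882 (0.854 to 0.911) here and 0.900 there. The 1.35 of Dnajb1 there is close to the 1.34 of a different gene, Hspa8, here. The log2 ratios of Hspa1b (0.47) and Hsph1 (-0.58) here can be set beside -1.01 for Hspa1b in the Yap-/- pair and 2.37 in the doxycycline pair. Median-ratio scaling moves all genes of this pair by 0.15 on the log2 scale and upper-quartile scaling by 0.11, and the first of these turns Dnajb1, at -0.11, to 0.03.

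Shared sequence bears on 7 of the 9 rows, because how the authors treated reads with several matches is not given in the sources used here. Of the 50-base words of Hspa1a, 66.3% occur in another gene, and 58.8% in Hspa1b, so reads of the pair may be split between them while the summed values above do not depend on that split. The share was 62.3% for Hspa1b, 47.5% for Hsp90aa1 (in 4 pseudogenes), 42.1% for Hspd1, 39.4% for Hspa8 (mostly in 12 pseudogenes) and 22.8% for Hspe1. It was 0.0% for Hsph1 and 0.4% for Dnajb1. The RPKM of Hspa1b was 2.57 times that of Hspa1a in Yap-/- and 4.55 times in Yap+/- organoids, and 3.04 times with and 3.89 times without doxycycline. Hspa1l, a testis-type HSP70 gene beside the pair that shares 8.0% of the words of Hspa1a, was named for that reason after its values were seen. It was at 0.430 RPKM (72 reads) in Yap-/- organoids, against 0.633 RPKM (89 reads) in Yap+/-. With doxycycline it was at 0.516 RPKM (96 reads) and without at 0.721 RPKM (80 reads), so it did not share the high induced level of the pair.

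Related chaperone genes were taken from lists of known family members. In the Yap-/- and Yap+/- pair, 0 genes at the floor passed 2-fold in either direction in these chaperone lists. They held 4 further HSP70, HSP110 and HSP90 relatives, 1 small heat shock protein, 12 J-domain co-chaperones and 24 other co-chaperones at the floor. Also at the floor were 13 chaperonin and prefoldin subunits, 14 mitochondrial and 19 endoplasmic reticulum chaperones. With 0.906% of all genes past 2-fold in this pair, few calls could come from lists of this size. List medians on the log2 scale ran from -0.23, for the 1 small heat shock protein (Hspb6, 1.24 RPKM in Yap-/- and 1.62 in Yap+/-), to 0.03. Hsp90ab1, the constitutive HSP90, was at 450 RPKM in Yap-/- organoids, against 466 RPKM in Yap+/-, far above Hsp90aa1. Hspa4, the constitutive HSP110, was at 51.0 RPKM in Yap-/-, against 50.3 RPKM in Yap+/-, and Hspa9, the mitochondrial HSP70, at 188 RPKM in Yap-/-, against 191 RPKM in Yap+/-. Among the widest gaps of their lists, Fkbp4, an HSP90 partner with prolyl isomerase activity, was at 152 RPKM in Yap-/-, against 128 RPKM in Yap+/-. The J-domain gene Dnajb4 was at 3.18 RPKM in Yap-/-, against 4.45 RPKM in Yap+/-. Hspa5, the endoplasmic reticulum HSP70, was at 162 RPKM in Yap-/-, against 194 RPKM in Yap+/-, and Serpinh1, the collagen chaperone, at 1.36 RPKM in Yap-/-, against 0.656 RPKM in Yap+/-. Of 4 heat shock factors and regulators at the floor, 0 passed 2-fold (median 0.00). Hsf1 itself was at 12.6 RPKM in Yap-/-, against 10.5 RPKM in Yap+/-, and Hsf2 at 2.14 RPKM in Yap-/-, against 2.21 RPKM in Yap+/-.

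With doxycycline the same 7 chaperone lists, with 4, 2, 12, 24, 13, 14 and 18 genes at the floor, held 1 gene past 2-fold higher and 0 lower, where 5.85% of all genes were higher and 5.8% lower. That gene was Cryab, the small heat shock protein alpha-B crystallin, at 13.3 RPKM (1191 reads) with and 0.0376 RPKM (2 reads) without, a ratio of 355 with a counting interval of 63.6 to 14065. It was at 0.112 RPKM in Yap-/- organoids, against 0.0445 RPKM in Yap+/-. Cryab and Hspb1 each reached 1 RPKM in the induced library alone. Hspb6 was at 2.15 RPKM with and 1.91 RPKM without doxycycline.

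Hspa5 was at 484 RPKM with and 244 RPKM without doxycycline, a log2 ratio of 0.99 and an RPKM ratio of 1.99 (1.95 to 2.02). P4hb, the disulfide isomerase gene of the same compartment, was at 355 RPKM with and 572 RPKM without. The median of the endoplasmic reticulum list was 0.01, with 9 of its 18 genes at the floor above 0 and 9 below. Hsp90ab1 was at 745 RPKM with and 595 RPKM without, a ratio of 1.25 (1.24 to 1.27), so its RPKM was 13.3 times that of Hsp90aa1 with and 19.7 times without doxycycline. The list of further HSP70, HSP110 and HSP90 relatives had a median of 0.20, with 3 of 4 above 0. Among these was Hspa4, at 65.8 RPKM with and 59.2 RPKM without. Hspa13 was below 0, at 5.92 RPKM with and 6.26 RPKM without. J-domain co-chaperones had a median of 0.07, and the vesicle J-protein gene Dnajc5 was at 32.6 RPKM with and 16.3 RPKM without, a log2 ratio of 0.95.

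Other co-chaperones had a median of 0.08. Among them Bag3, an HSP70 exchange factor and HSF1 target, was at 21.2 RPKM with and 17.4 RPKM without, a ratio of 1.22 (1.13 to 1.32). Chaperonin and prefoldin subunits, which fold actin and tubulin, had a median of 0.24, with 12 of 13 above 0, among them Tcp1 at 72.2 RPKM with and 64.3 RPKM without. Mitochondrial chaperones had a median of -0.11, with Trap1, the mitochondrial HSP90, at 41.1 RPKM with and 52.3 RPKM without, and Hspa9 at 237 RPKM with and 203 RPKM without. Of 4 heat shock factors and regulators, 0 passed 2-fold (median 0.31). Hsf1 was at 17.3 RPKM with and 15.5 RPKM without, and Hsf2 at 3.79 RPKM with and 2.45 RPKM without.

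Genes of other stress programmes were past the line beside the inducible HSP70 pair. With doxycycline, 5 of 11 protein-damage response genes passed 2-fold higher and 0 lower (median log2 ratio 0.47), beside 5.85% of all genes higher and 5.8% lower. Ppp1r15a, which restarts translation after stress, was at 22.1 RPKM with and 3.46 RPKM without, and Gadd45b at 27.6 RPKM with and 4.82 RPKM without. The haem oxygenase gene Hmox1 was at 14.2 RPKM with and 2.94 RPKM without, the autophagy receptor gene Sqstm1 at 107 RPKM with and 38.4 RPKM without, and Gadd45a at 21.3 RPKM with and 7.38 RPKM without. Of 13 AP-1 and immediate early genes, 9 were at least 2-fold higher and 0 lower (median 1.24), beside the same shares of all genes. They were Ier3, Fosl1, Atf3, Dusp1, Klf6, Fos, Junb, Egr1 and Jun, with RPKM ratios from 2.31 for Jun to 18.3 for Ier3.

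In the Yap-/- and Yap+/- pair the protein-damage list had a median of -0.03 and the immediate early list one of -0.28, with 10 of its 13 genes below 0. Of both lists only Hmox1 was past 2-fold, at 0.923 RPKM in Yap-/-, against 3.05 RPKM in Yap+/-. Atf3 was at 3.19 RPKM in Yap-/-, against 7.12 RPKM in Yap+/-. The part of a wider stress response in the HSP70 values was not tested. Of 14 housekeeping genes, 0 passed 2-fold in this pair (median 0.11), and with doxycycline 1 was higher and 1 lower (median -0.04), near the 11.6% of all genes past 2-fold. These were Actb, at 1413 RPKM with and 437 RPKM without, and the transferrin receptor gene Tfrc, at 28.3 RPKM with and 61.7 RPKM without.

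**Figure D4:**
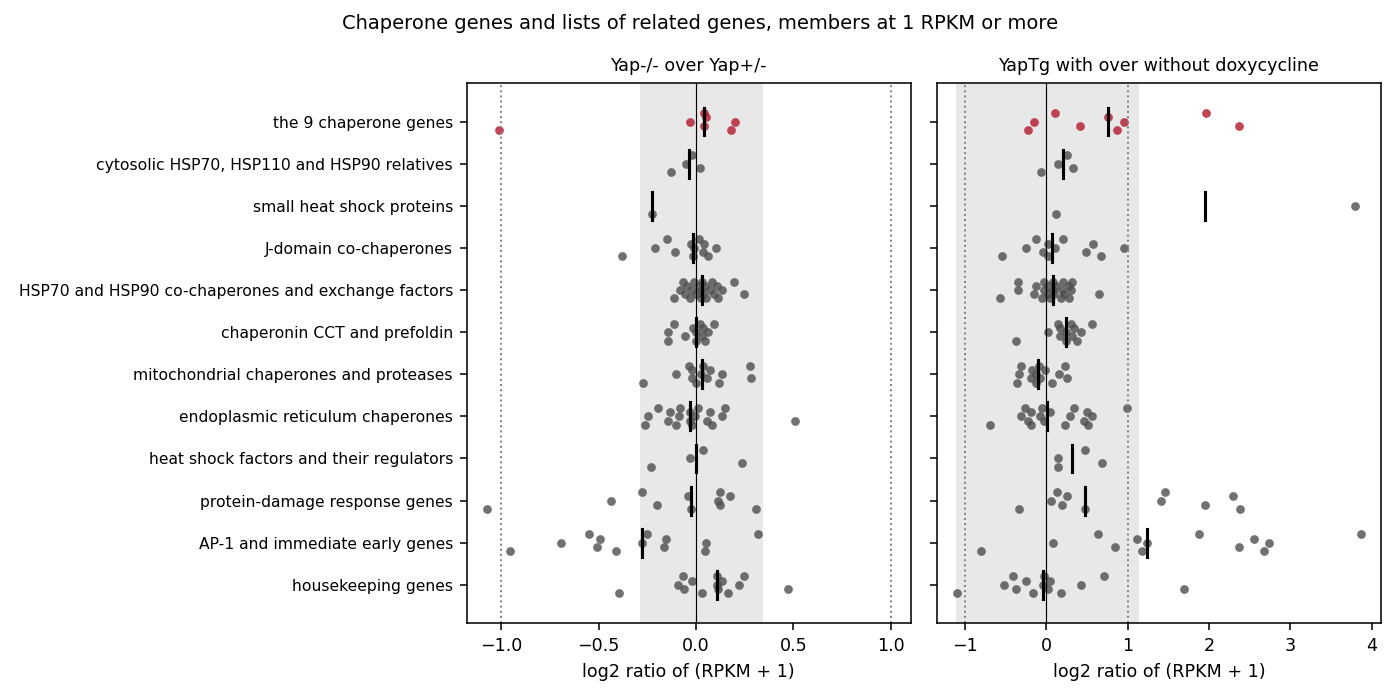
Log2 ratios of RPKM + 1 for the 9 chaperone genes (red) and for lists of related genes (grey), each point 1 gene at 1 RPKM or more in either library of the pair, with black bars at the medians. The grey band holds the middle 90% of all genes and dotted lines mark 2-fold. Of the chaperones, Hspa1b lies past the line on the left, and Hspa1a, Hspa1b and Cryab on the right, where 9 immediate early genes do too.

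Over the 4 libraries, genes nearest to each chaperone were found by the root mean square difference of log2 values. These were values of RPKM + 1, centred on each gene's mean. The nearest genes were sought among 7178 other genes that reached 5 RPKM in some library (7179 for Hspb1). Predicted genes, symbols with several rows and multi-copy families, such as alpha-defensin, histone and ribosomal protein genes, had been left out, so the counts below do not cover them. With only 4 libraries, flat patterns had many near genes: 1289 genes lay within 0.1 of Hspd1 and 791 within 0.1 of Dnajb1. For Hspa1b it was 1 gene, the laminin subunit gene Lamb3, at 3.93 RPKM in Yap-/- organoids, against 9.83 RPKM in Yap+/-, and 41.5 RPKM with and 7.11 RPKM without doxycycline (difference 0.076). Next to it came Kifc3 (0.133) and the immediate early phosphatase gene Dusp1 (0.135). For Hspa1a it was 7 genes, led by Plec (0.053), Dusp3 (0.067) and S1pr2 (0.069). Hspa8 had 27 such genes, led by Tspan15, Hsp90aa1 67, led by BC006779, Hspb1 110, led by Mtap7d1, Hspe1 198, led by Gclm, and Hsph1 330, led by Trrap. The added 1 RPKM flattens low genes, so their nearest genes need not share their RPKM ratios. Mtap7d1 was at 6.90 RPKM with and 3.16 RPKM without doxycycline, where the RPKM ratio of Hspb1 was 23.9. Plec was at 39.5 RPKM with and 10.3 RPKM without, where that of Hspa1a was 9.06.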

How the data were processed

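RNA-seq libraries from 4 mouse small intestinal organoid cultures were used, 1 for each group, with groups taken from the labels' genotype and title. Libraries were made from total RNA with an Illumina TruSeq kit, per the labels' protocols. The submitters' processing notes name CASAVA 1.8, FastQC, TopHat 1.4.1 and the mm9 build. The counter, annotation, strand setting and handling of reads with several matches were not given in the sources used here. In the table, the authors deposited 4 columns of values (0 left unused), whose unit was found from the values to be RPKM, and they were used as deposited.

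Library totals and whole reads were recovered from the deposited RPKM with GENCODE M21 gene lengths as a guide: 17378 of 17378 genes above 0 had a length that makes reads whole within 0.01 in every library, and for 6930 it was the same as in GENCODE M21. Where several lengths fit, read numbers rest on that guide. Among genes with 1 to 20 reads, 64.3% to 67.9% of read numbers were even, against 49.1% to 51.6% over 50 reads. Each interval (exact conditional binomial, 95%) therefore counts 2 reads as 1 fragment. PCR copies are not independent molecules, so intervals and the bound of 3 reads cover counting error only.

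Log2 ratios used a pseudocount of 1 RPKM, which understates differences of low genes. Ratios named as RPKM ratios have none. No test was made, as each group has 1 library. The 9 genes, 11 gene lists (beside 4 lists of cell type markers) and comparisons were chosen with earlier results of these data known. All 9 genes, Yap1, 8 fixed relatives, the 2 list members furthest from 0 in each main pair and those past 2-fold could be named, and the 3 genes nearest to each of the 9. Of these, the text gives a selection, and other genes are marked. Of the listed symbols, Pfdn6 had no row, and Hspa14, with several rows, was left out. Gadd34, another name of Ppp1r15a, had no row of its own, and the gene was counted as Ppp1r15a. Promoter windows are RefSeq's (GRCm38.p6), not mm9, and no coordinates were converted. Alternatives changed the pseudocount, floor, scaling, fold threshold and the treatment of Hspa1a and Hspa1b. Python 3.11.15, numpy 2.4.6, pandas 2.3.3, scipy 1.17.1 and matplotlib 3.10.9 were used, and the recovery and interval steps were tested on simulated data.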

Additional observations from a re-analysis of the deposited data

How the results depend on the processing

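No paired analysis was possible because each group has 1 library, and for the same reason no library could be left out. The count of chaperone genes past the line moved in 8 cases, and 0 genes past the line changed sign. Short of the line, both scalings turned Hspd1 and Dnajb1 from just above to just below 0 in the Yap-/- pair, and median-ratio scaling put Dnajb1 at 0.03 between Yap+/- and uninduced YapTg organoids (-0.11 in the report). The 1 gene lower in Yap-/- organoids, Hspa1b, became 0 with a pseudocount of 5 RPKM (log2 ratio -0.44), a floor of 5 RPKM, a 4-fold threshold, and with Hspa1a and Hspa1b summed (log2 ratio -0.96). The 2 genes higher with doxycycline became 1 with a pseudocount of 5 RPKM, a 4-fold threshold or the summed pair, which then counts as 1 gene, and 5 with a 1.5-fold threshold. With a pseudocount of 0.1 RPKM the count was 3, with Hspb1 at a log2 ratio of 2.98. The other 46 counts stayed within 1.5 times. The settings changed the counts over all genes more: from 1 to 144 higher and from 8 to 168 lower in the Yap-/- pair (36 and 61 in the report), and from 191 to 1267 higher and from 121 to 1447 lower with doxycycline (650 and 644). In the Yap-/- pair 37.1% of calls were higher, 28.9% with median-ratio scaling, 28.0% with upper-quartile scaling, 51.3% with a pseudocount of 5 RPKM, 11.1% with a 4-fold and 46.2% with a 1.5-fold threshold. With doxycycline 50.2% were higher, 61.2% with a 4-fold threshold. Between Yap+/- and uninduced YapTg organoids 60.5% were higher, 74.2% and 71.6% with those scalings, 48.2% with a pseudocount of 0.1 RPKM, 42.9% with a 4-fold and 41.9% with a 1.5-fold threshold. Depth limits Hspb1 most, at 0 to 2 reads in 3 libraries.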
